A study of Mus musculus with 8 samples.

Results

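The genes of mTORC1, AMPK and TFEB nutrient sensing were examined among the RNAs bound by YTHDF3, a reader protein of N6-methyladenosine (m6A), in mouse embryonic fibroblasts (MEFs). The set held 45 genes, chosen by symbol, and a peak was counted for a gene when the deposited gene name was that symbol. Of the 45 genes, 33 had at least 1 peak and 12 had none. Their peaks fell into 197 merged regions of 39979 in the whole series, and 35 of the 6531 regions that were called in all 4 peak lists. All cells were wild-type C57BL/6 MEFs from embryos of 13.5 days post-coitum at 5 to 6 passages. Normal cells were left untreated, and starved cells were kept for 2 h in a medium without nutrients. Each condition had 2 replicates, each with an endogenous YTHDF3 immunoprecipitate (IP) and its input RNA. The labels do not say whether replicates came from separate embryos, so p-values measure only the spread between these libraries.

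mTORC1 is the kinase complex that holds autophagy back while amino acids and growth factors are plentiful. Amino acids reach it at the lysosome through the Rag GTPases, which the Ragulator, GATOR and folliculin complexes control, and growth factors reach it through AKT, the TSC complex and Rheb. AMPK senses low energy and acts against mTORC1, and the transcription factors TFEB and TFE3 switch on lysosomal and autophagy genes when mTORC1 is off. YTHDF3 is a cytoplasmic protein that binds methylated adenosines, many of which lie in the sequence GGAC.

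Sites with this core are shown for the described genes with the most IP reads and for genes with a called change, to place the peaks on the transcripts. Each is the GGAC nearest to the centre of the region within exons of the gene's principal transcript, on its strand (GRCm38), with GGAC in capitals. They are from exon 41 of Tsc2 (3′ UTR, chr17:24595848-24595875, minus strand), exon 18 of Fnip2 (3′ UTR, chr3:79458454-79458481, minus), exon 3 of Flcn (coding, chr11:59804647-59804674, minus), exon 12 of Flcn (coding, chr11:59794109-59794136, minus), exon 4 of Wdr24 (coding, chr17:25827036-25827063, plus) and exon 8 of Prkab2 (3′ UTR, chr3:97670767-97670794, plus).
Tsc2: cgctgaacctgaGGACttggggggaggg
Fnip2: cctgagaatgtgGGACagcaaatcctga
Flcn exon 3: ggccggaagtggGGACagtcctgaccag
Flcn exon 12: tgtggatgtggtGGACcaatgtctcatc
Wdr24: tggcacagacatGGACcatgttacggat
Prkab2: caggctgttaaaGGACctcaggcttttg

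The centre of the Tsc2 region lies past the 3′ end of Tsc2, so the site shown for this gene does not mark that centre. The exonic part of the regions with these sites held 4 GGAC in Tsc2, 12 in Fnip2, 18 in Wdr24 and 6 in Prkab2. It held 2 in the Flcn exon 3 region and 1 in the Flcn exon 12 region. No GGAC lay in the exonic part of the Pdpk1 region or of the Flcn exon 10 region that are described below. In 200 bp around the centre, on the strand of the overlapping exon, 20 of the 35 regions held GGAC (57.1%, 95% Wilson interval 40.9 to 72.0). Of all 6350 regions whose strand was known, 61.6% held it, which lies inside that interval. The longer GGACT, which contains GGAC, was in 17.1% of the 35 regions and 21.9% of all. The mean GC content of the windows was 56.3% in the 35 regions and 55.2% in all.

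The lists hold only enriched peaks, so a gene without one was not shown to lack binding. The kept peaks held 8818619, 14397476, 15715472 and 19271667 IP reads and 2634685, 5157523, 2507434 and 4475345 input reads, in normal replicates 1 and 2 and starved replicates 1 and 2, in that order. Values are given in this order throughout. Among fibroblast markers 7 of 12 had a peak, with none for Col1a1, Dcn, Lum, Twist1 or Vim. Peaks named for the macrophage gene Csf1r lay in exons of the fibroblast gene Pdgfrb, no epithelial marker of 4 had a peak, and of 4 endothelial markers Kdr alone had one.

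The peaks of the nutrient sensing genes numbered 79, 109, 100 and 129 in the 4 lists, of 17364, 21943, 23088 and 24701 peaks in all. The largest share was labelled exon by HOMER, at 40.5%, 53.2%, 48.0% and 57.4%, against 44.8%, 50.9%, 42.4% and 51.8% of all peaks. Fewer lay in 3′ UTRs, at 12.7%, 10.1%, 7.0% and 7.0%, against 16.9%, 13.2%, 16.8% and 11.3% of all peaks. These shares are descriptions, since many of the peaks lie in a few genes. The median IP/input fold of the peaks was 3.17, 3.07, 2.87 and 3.03, close to the 3.11, 3.06, 2.97 and 3.11 over all peaks.

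A deposited name is that of the nearest promoter, which need not be the bound transcript. Of the 197 regions, 133 (67.5%) overlapped an exon of the gene they were named for, 48 overlapped exons of other genes only, and 16 overlapped none. Of the 18 regions named Prkab1, 17 lay in exons of Cit, and the 9 regions named Lamtor3 lay in Dnajb14. All 5 regions named Pld6 that were in all 4 lists lay in exons of its neighbour Flcn. Counted by exon overlap instead, 30 genes had 253 regions, with 48 in all 4 lists. Rps6kb1, the S6 kinase gene, had 3 regions by exon and none by name.

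**Figure D1:**
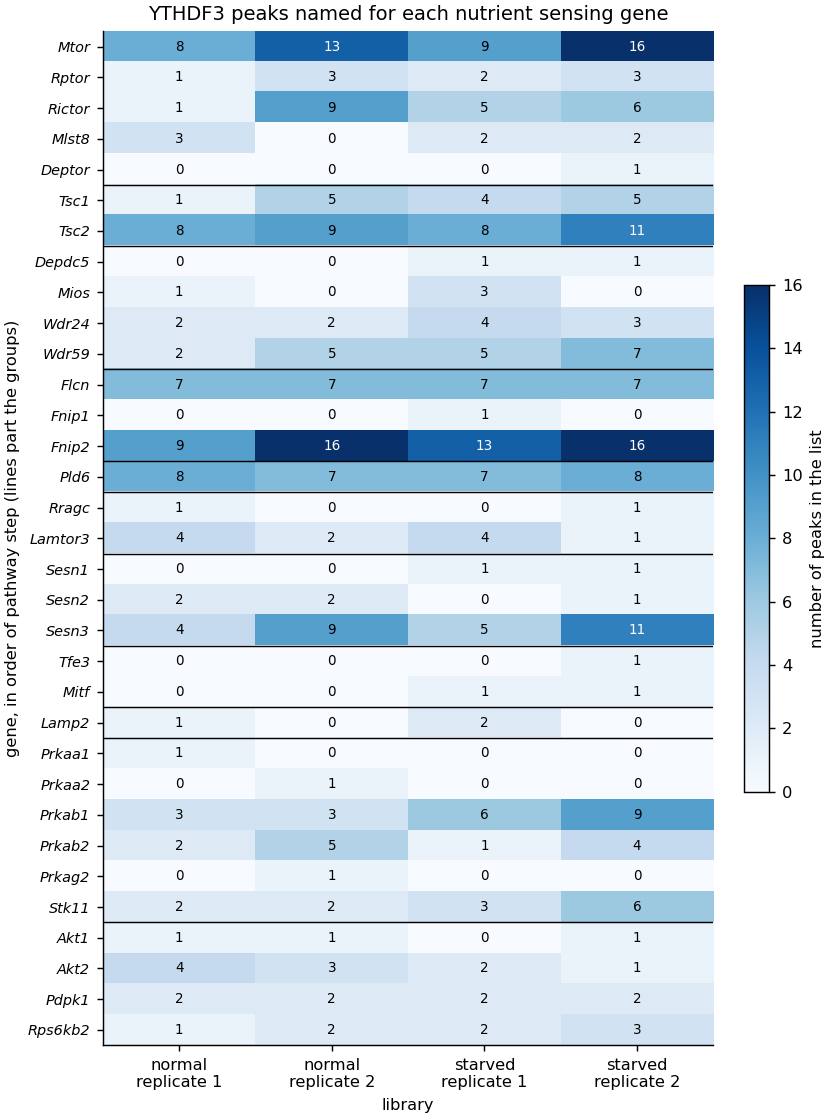
Number of YTHDF3 peaks named for each of the 33 nutrient sensing genes with a peak (rows, grouped by pathway step) in the 4 lists (columns); shading and digits both give the number of peaks. Mtor, Fnip2, Flcn, Tsc2 and Sesn3 had peaks in every list, while genes such as Deptor, Tfe3, Fnip1 and Prkaa1 had a single peak in a single list.

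The mTOR complex subunits had 38 regions. Mtor, the kinase itself, had 8, 13, 9 and 16 peaks. Rictor, which defines mTORC2, had 1, 9, 5 and 6, and Rptor, which defines mTORC1, had 1, 3, 2 and 3. Mlst8, shared by both complexes, had 3, 0, 2 and 2 peaks, and Deptor, an inhibitory subunit, had 1 peak in starved replicate 2. Akt1s1 and Mapkap1 had none.

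In the TSC complex, the inhibitor of Rheb, Tsc2 had 8, 9, 8 and 11 peaks and Tsc1 had 1, 5, 4 and 5, whereas Rheb had none. Among the GATOR genes, Wdr59 had 2, 5, 5 and 7 peaks and Wdr24 had 2, 2, 4 and 3. Both are GATOR2 subunits, as is Mios, which had 1, 0, 3 and 0. Of the GATOR1 genes, Depdc5 had 1 peak in each starved list, and Nprl2 and Nprl3 had none. In the folliculin complex, which activates RagC and RagD, Flcn had 7 peaks in every list and Fnip2 had 9, 16, 13 and 16, while Fnip1 had 1 peak in starved replicate 1.

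The Rag and Ragulator genes were sparsely covered. Rragc had 2 regions, Lamtor3 had only those in Dnajb14, and Rraga, Rragd and Lamtor1 had none. Sesn3, a sestrin that restrains mTORC1 through GATOR2, had 4, 9, 5 and 11 peaks, against 2, 2, 0 and 1 for the leucine sensor Sesn2 and 0, 0, 1 and 1 for Sesn1. Tfeb had no peak, Tfe3 had 1 in starved replicate 2, and Mitf had 1 in each starved list. Of the lysosomal membrane genes Lamp2 had 1, 0, 2 and 0, and Lamp1 and Mcoln1 had none.

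All 6 genes of AMPK and its upstream kinase had a peak, but most had few. Prkab2, a beta subunit, had 2, 5, 1 and 4 peaks, and Stk11, which encodes the AMPK kinase LKB1, had 2, 2, 3 and 6. The catalytic subunits Prkaa1 and Prkaa2 and the gamma subunit Prkag2 had 1 each in all. Pdpk1, the kinase that activates AKT, had 2 in every list, Akt1 had 1, 1, 0 and 1, and the regions named Akt2 and Rps6kb2 missed the exons of those genes.

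To find whether YTHDF3 bound these RNAs differently after nutrient deprivation, the IP/input fold was compared between conditions. A region was called changed when its fold moved 1.8-fold the same way in each replicate, and none of the 35 did. Over all 6531 regions 0.23% were higher and 0.322% lower by this rule. In edgeR's quasi-likelihood test of the IP/input ratio none of the 35 passed an adjusted p of 0.05, and none had an unadjusted p under 0.05. DESeq2 also called 0. Over all regions, the adjusted test called 0.0153% higher and 0 lower, and the unadjusted p was under 0.05 for 1.26% higher and 1.55% lower. The median change of the fold was -0.04 on the log2 scale over the 35 regions and 0.01 over all. With 2 samples against 2, an exact permutation test of a single region cannot give a two-sided p below 0.33.

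**Figure D2:**
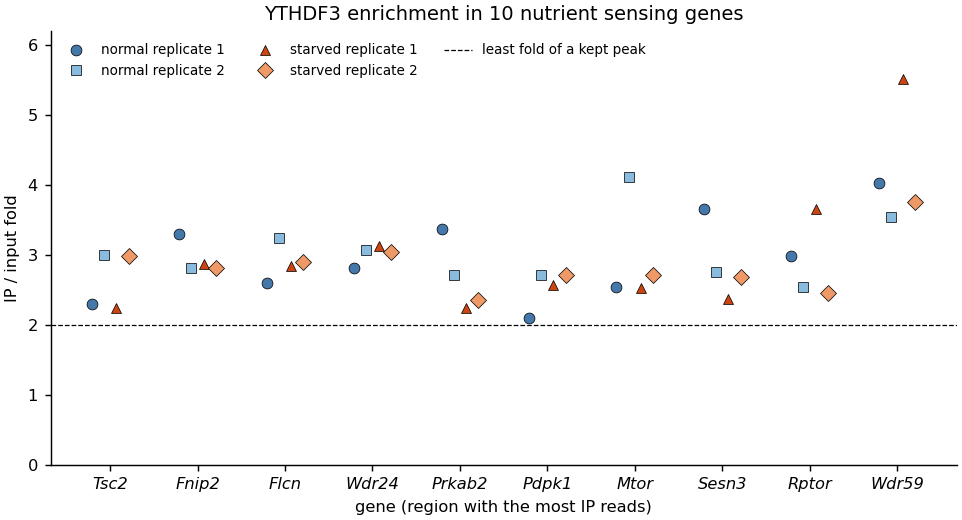
IP/input fold (vertical axis, starting at 0) in each of the 4 libraries for the region with the most IP reads of 10 nutrient sensing genes that had a region in all 4 lists inside their own exons; the dashed line is the fold of 2 that a peak needed to be kept. Folds ran from 2.09 in Pdpk1 to 5.52 in Wdr59, and normal and starved symbols were mixed for most genes.

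Among regions that carried the name of the gene whose exon they overlapped, the one of Tsc2 at chr17:24592991-24596520 had the most reads, 4440, 4872, 5965 and 5265 in IP and 1555, 1627, 1144 and 1178 in input. It covers the last exon of Tsc2 and runs on into the converging gene Pkd1, and the peaks carry no strand, so the reads of the 2 genes cannot be told apart. Its folds were 2.30, 2.99, 2.23 and 2.98. The replicates differed from each other more than the conditions did.

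The region of Mtor with the most reads (chr4:148464131-148465370) covers exons 11 to 12 of 58, in coding sequence. It had 123, 338, 265 and 668 IP reads and folds of 2.54, 4.12, 2.52 and 2.72. The fold of normal replicate 2 stood above the other three, which lay together. The edgeR change of the ratio was -0.42 with an unadjusted p of 0.166. In Rptor the region in exon 3 of 34 (chr11:119671051-119671470) held 89, 94, 145 and 125 IP reads, with folds of 2.99, 2.54, 3.66 and 2.45 that overlapped between conditions.

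The GATOR2 genes gave regions of different depth. The Wdr24 region (chr17:25825511-25828700) covers exons 2 to 9, nearly the whole transcript, with 429, 439, 957 and 794 IP reads. Its folds of 2.81, 3.07, 3.13 and 3.04 were the most alike of the 10 genes. The Wdr59 region in exon 1 (chr8:111521731-111522150) had only 50, 39, 116 and 62 IP reads over 10, 11, 9 and 11 input reads. Its folds of 4.03, 3.55, 5.52 and 3.76 overlapped between conditions.

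Prkab2, in its last exon (chr3:97669551-97672180, mostly 3′ UTR), gave 268, 512, 230 and 840 IP reads and folds of 3.38, 2.71, 2.24 and 2.36. Both starved folds lay below both normal ones, and the fold fell by 0.59 on the log2 scale in replicate 1 and fell by 0.20 in replicate 2. The covered length was 930, 1630, 400 and 2180 bp, so the libraries did not measure the same stretch. The edgeR change of the ratio was -0.42, with an unadjusted p of 0.115. Sesn3, in its last exon (chr9:14325451-14326050), had 59, 124, 183 and 258 IP reads and folds of 3.66, 2.76, 2.38 and 2.69. Here too both starved folds were lower, but in replicate 2 the fold fell by only 0.04 on the log2 scale. In Pdpk1 the region of exon 2 (chr17:24110701-24111280) had 205, 355, 421 and 475 IP reads and folds of 2.09, 2.71, 2.58 and 2.71, which overlapped between conditions.

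The other 5 Mtor regions lay in exons 2 to 18, and 3 more in exons 22 to 44 were named for the neighbours Angptl7 and Exosc10. Over the 9 regions the edgeR change of the ratio ran from -0.42 to 0.35, with the highest at exon 2 (chr4:148452101-148452650), where the folds were 2.75, 2.13, 3.14 and 3.12. Both starved folds were above both normal ones there, and the unadjusted p was 0.283. The IP change over the 9 regions ran from -0.37 to 0.44 on the log2 scale.

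Some of the deepest regions of the set carried the name of a neighbour. In Pdpk1 the last exons, mostly 3′ UTR (chr17:24073761-24079750, named Kctd5), held 3067, 4969, 5648 and 6209 IP reads over 872, 1905, 897 and 1494 input reads. Its folds of 2.84, 2.61, 2.70 and 2.77 differed little among the 4 libraries. In Stk11 exons 9 to 10 (chr10:80129691-80133390, named Cbarp, whose exons it also overlaps) had 1583, 1052, 3042 and 2415 IP reads. The folds were 3.05, 3.04, 2.22 and 2.61, with both starved values lower, and the edgeR change of the ratio was -0.37 with an unadjusted p of 0.0704 and an adjusted p of 0.999.

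Rictor had 2 such regions, named Osmr. Exons 37 to 38 (chr15:6795691-6796910) had 259, 468, 481 and 510 IP reads and folds of 3.03, 2.42, 2.86 and 2.22, which followed the replicate and not the condition. In Rptor the last exon (chr11:119897251-119899440) had 566, 152, 1559 and 1332 IP reads and folds of 2.28, 2.17, 2.24 and 2.40. In exons 32 to 33 of Rptor (chr11:119895701-119896750) the folds were 2.10, 3.85, 2.04 and 2.03, so that normal replicate 2 alone stood apart. None of the 48 regions found by exon overlap was called for the fold or the ratio.

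Among the 35 regions, both starved folds lay above both normal folds in 4 (background 15.2%) and below them in 9 (background 13.3%). The 17 regions of Flcn and Fnip2, which are not independent within a gene, held 2 of the 4 and 6 of the 9. The other 18 regions held 2 and 3. Counted by exon overlap, both starved folds lay above in 4 of 48 regions and below in 14. The 31 of these outside Flcn and Fnip2 held 2 and 8. The strongest fall in both replicates was in exon 3 of Fnip2 (chr3:79514901-79515460), where the folds were 4.84, 4.22, 2.67 and 2.75. This region had few reads, 18, 76, 162 and 264 in IP over 0, 18, 26 and 64 in input. Of the 35 it is the only one past a 1.5-fold change in both replicates. The input of normal replicate 1 was 0 reads there and was set to 3, so the fold of 4.84 rests on that setting. The edgeR change of the ratio was -0.98, with an unadjusted p of 0.063 and an adjusted p of 0.999.

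The called changes in read density lay in Flcn and Fnip2. Reads per base, scaled for library size by edgeR, were compared separately in IP and in input. In IP, 2 of the 35 regions were higher after nutrient deprivation (background 0.184%) and none lower (background 0.888%). In input, 1 was higher (background 0.276%) and none lower (background 0.812%). All 3 lay in exons of Flcn or Fnip2. In these bulk lysates more RNA per cell and a larger share of the RNA cannot be told apart.

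Flcn encodes folliculin. Its exon 10 (chr11:59794901-59795480, named Pld6 in the lists) had 148, 185, 813 and 577 IP reads over 38, 45, 103 and 99 input reads. Per kb of covered length and scaled for library size, IP was 426, 407, 1152 and 918, so both starved values were above 2 times either normal value. The change was 1.31 on the log2 scale, and 1.44 and 1.17 in replicates 1 and 2 (edgeR adjusted p = 0.0439). Its folds were 3.14, 4.11, 3.38 and 3.89 and did not separate the conditions.

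Exons 11 to 12 of Flcn (chr11:59793841-59794620) had the called input change, with 54, 73, 183 and 188 input reads. The scaled input density was 92.5, 82.1, 301 and 244 reads per kb, higher in both starved libraries. The change was 1.64 on the log2 scale (edgeR adjusted p = 0.0431). The IP value in this region was 1.31 higher on the log2 scale and did not pass the test (edgeR adjusted p = 0.103).

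Among the regions named Flcn, the one in exon 3 had the most reads (chr11:59804291-59805000), with 400, 383, 2032 and 1246 IP reads over 124, 118, 307 and 287 input reads. Scaled IP was 832, 676, 2312 and 1551 reads per kb, and scaled input was 219, 143, 526 and 394. Starved libraries were higher in both. The changes were 1.36 in IP (edgeR adjusted p = 0.0654) and 1.35 in input (edgeR adjusted p = 0.106), with folds of 2.60, 3.25, 2.84 and 2.89.

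Exon 13, with the 3′ UTR (chr11:59791641-59793040, named Pld6), was the deepest of all, at 923, 826, 4308 and 2287 IP reads over 237, 225, 471 and 484 input reads. Scaled IP was 931, 718, 2486 and 1623 reads per kb there, and the folds were 3.14, 3.67, 3.92 and 3.15. Both starved densities were again above both normal ones, with an edgeR adjusted p of 0.0825 for IP.

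Higher starved values ran along the Flcn transcript. In all 12 of its regions, from exon 1 to exon 13, both starved libraries lay above both normal ones in IP and in input. The log2 change ran from 0.93 to 1.36 in IP and from 0.79 to 1.64 in input, while that of the ratio ran from -0.34 to 0.14. The regions share one transcript and are not independent. Summed, they held 3442, 3114, 16053 and 9690 IP reads and 870, 948, 2227 and 2070 input reads.

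Fnip2 encodes a binding partner of folliculin. Its last exon (chr3:79457071-79459930, almost all 3′ UTR) had 348, 871, 1751 and 3059 IP reads over 85, 310, 261 and 725 input reads. Scaled IP was 310, 406, 852 and 973 reads per kb, and scaled input was 64.2, 99.0, 191 and 255. Both starved libraries were above both normal ones in IP and in input. The change was 1.35 in IP (edgeR adjusted p = 0.0409) and 1.44 in input (edgeR adjusted p = 0.0704), and the folds of 3.30, 2.81, 2.88 and 2.81 overlapped. The long exon 14 (chr3:79480361-79482080, coding) had 223, 722, 2091 and 2671 IP reads and scaled densities of 347, 601, 988 and 1334 reads per kb. Its folds were 3.39, 3.05, 3.67 and 4.22, the starved ones both higher, and its IP change had an edgeR adjusted p of 0.135. Across its 5 regions the IP change ran from 1.12 to 1.55 on the log2 scale and the input change from 0.96 to 2.61, the highest being the exon 3 region with 0 input reads in normal replicate 1.

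**Figure D3:**
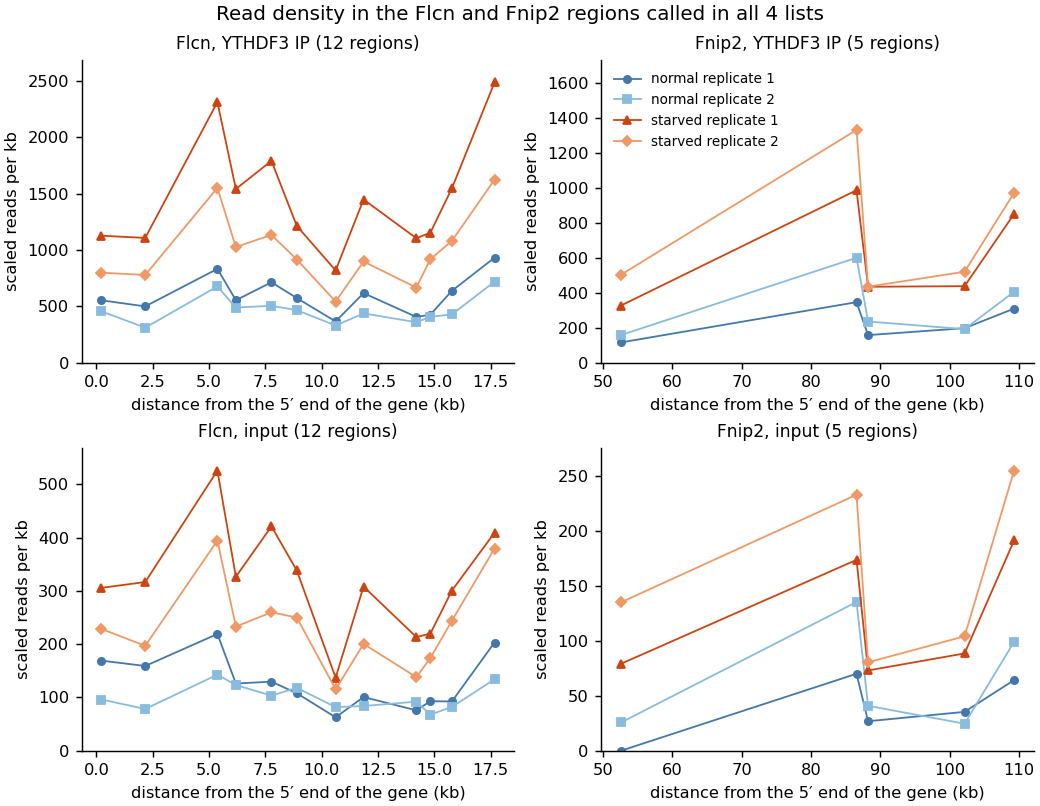
Scaled reads per kb of covered length (vertical axes, from 0) in the 12 Flcn and 5 Fnip2 regions called in all 4 lists, placed by distance from the 5′ end of the gene in kb, for IP (upper panels) and input (lower panels); each line is one library. Both starved lines run above both normal lines in every region of the 4 panels.

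The 3 calls depended on single libraries and on the scaling for covered length. Without the length offset the edgeR adjusted p was 0.364 for Flcn exon 10, 0.563 for Fnip2 in IP and 0.263 for Flcn exons 11 to 12 in input. In that setting 0 of all 6531 regions passed in IP or input, in either direction. The log2 changes of the 3 regions were 1.37, 1.35 and 1.64 there, close to those with the offset. Without starved replicate 1 the adjusted p was 0.131 for Flcn exon 10, 0.0685 for Fnip2 in IP and 0.0935 for Flcn exons 11 to 12 in input. Without starved replicate 2, Fnip2 had an adjusted p of 0.0626, and without normal replicate 2 the Flcn input call had one of 0.0540. DESeq2 called more of the 35: in IP 14 were higher (67 of all 6531 regions), and in input 5 were higher (42 of all 6531). With reads of the regions summed per gene, none of 12 genes of the set passed in IP, input or ratio. Over 2230 genes 0.224% were higher in IP, 0.224% in input and 0.0448% in the ratio, and 1.21%, 1.17% and 0 were lower. The log2 difference of Flcn was 1.21 in IP and 1.25 in input (edgeR adjusted p = 0.118 and 0.0810), and that of Fnip2 was 1.32 and 1.29 (edgeR adjusted p = 0.0744 and 0.0921). That of the summed ratio was -0.07 in Flcn and 0.01 in Fnip2.

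**Figure D4:**
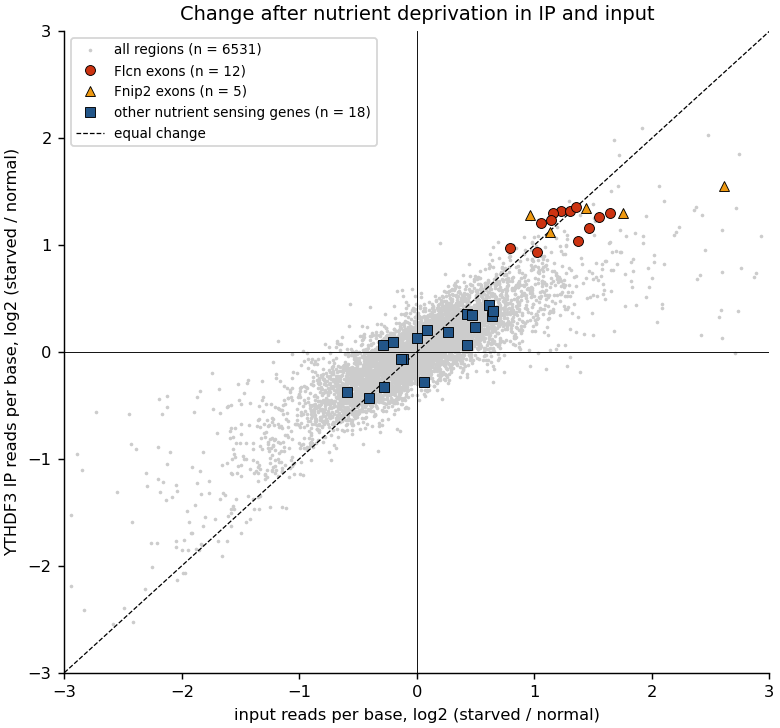
Log2 change from normal to starved in input reads per base (horizontal axis) against that in YTHDF3 IP reads per base (vertical axis) for the 6531 regions called in all 4 lists (grey, with 31 outside the axes) and the 35 regions of nutrient sensing genes; the dashed line marks equal change. The 17 regions in exons of Flcn and Fnip2 lie between 0.93 and 1.55 in IP, and the other 18 between -0.43 and 0.44.

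Unadjusted p-values were under 0.05 for 17 of the 35 regions in IP, all higher (background 4.98% higher and 5.44% lower), and for 15 in input, all higher (background 3.98% higher and 4.41% lower). Those were the 12 Flcn and 5 Fnip2 regions in IP and 15 of these 17 in input. Of the other 18 regions, counted by deposited name, none had an unadjusted p under 0.05 in IP or input. Their median change was 0.09 in IP and 0.06 in input on the log2 scale, against 0.01 in both over all regions. Both starved IP densities lay above both normal ones in 20 of the 35 (background 20%), which were the 17 Flcn and Fnip2 regions and 3 others, and below them in 3 (background 19.8%). For input they lay above in 21 (background 18.2%), of which 4 were not in Flcn or Fnip2, and below in 3 (background 19.4%). The 18 regions came from the mTOR, TSC, GATOR, sestrin, AMPK and AKT or PDK1 groups, and none of them was called in IP or input. Counted by exon overlap, the regions outside Flcn and Fnip2 numbered 31, with median changes of 0.16 in IP and 0.25 in input. The unadjusted edgeR p was under 0.05 for 1 of them in IP (in Tsc1) and 1 in input (in Mlst8). In IP and in input alike, both starved densities lay above both normal ones in 10 of the 31 and below in 3.

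The regions counted for Tsc1 and Tsc2 gave read density changes of opposite sign. In the last exon of Tsc1, 2 regions named for the neighbour Spaca9 together held 122, 324, 1612 and 1923 IP reads over 820, 1200, 3300 and 3780 bp of called sequence. Summed per gene, the difference in IP per base was 0.67 for Tsc1 and -0.44 for Tsc2 on the log2 scale. Neither passed the adjustment (edgeR adjusted p = 0.383 and 0.380). In input the differences were 1.05 for Tsc1 and -0.42 for Tsc2, and in the IP/input ratio they were -0.39 and -0.03. None of these had an edgeR adjusted p under 0.05. The Tsc1 regions held 20, 113, 260 and 508 input reads. The Tsc2 values rest on the 1 region that runs on into Pkd1. Only 705 of its 3530 bp lie in the last exon of Tsc2, so these are not values of Tsc2 alone. Whether these differences differ from each other was not tested.

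Peaks called in both starved lists and in neither normal list numbered 12 of 197 regions, 6.09% against a background of 4.7%. The reverse held for 1 region, 0.508% against 1.3%. The starved lists held more IP reads, though not more input reads, and the part of depth in these calls was not tested. Exons of the named genes held 8 of the 12, in Stk11, Tsc1, Sesn1, Rictor, Fnip2 and Wdr59. The deepest was in Stk11 (chr10:80125831-80127310), with 1507 and 665 IP reads over 310 and 217 input reads and folds of 2.08 and 2.04, just above the fold of 2 needed to be kept. In Sesn1, whose product inhibits GATOR2, the region at chr10:41810191-41810700 had 128 and 82 IP reads over 12 and 15 input reads, and folds of 4.57 and 3.64. Tsc1 had 2 such regions, with folds of 4.45 and 3.21 at chr2:28641161-28641710 and 4.50 and 2.47 at chr2:28665371-28665770.

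Of 74 other genes of the same pathways, 17 had 46 regions in all 4 lists. None changed by 1.8-fold in both replicates, and none passed the edgeR test of the ratio or of IP reads per base in either direction. In input 1 of the 46 was lower and none higher. It is named for Tbc1d7, a subunit of the TSC complex, but lies in an exon of Gfod1 (chr13:43195691-43201470). It had 1025, 1831, 345 and 621 input reads, and the change was -1.23 on the log2 scale (edgeR adjusted p = 0.0365, and 0.0540 without starved replicate 1). Of the 46 regions, 35 overlapped an exon of the gene they were named for and 11 did not. The insulin receptor gene Insr had 14, all in its own exons. The 7 regions named for Prkag1, a gamma subunit of AMPK, all lay in exons of Kmt2d. Ulk1, a kinase that starts autophagy and that mTORC1 phosphorylates, had 1 region in its own exon, and the 1 region named for the related kinase Ulk2 overlapped no exon.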

How the data were processed

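YTHDF3 RIP-seq was analysed in 4 IP libraries and their inputs. The authors aligned reads to mm10 with TopHat2 2.0.13, called peaks of each IP against its input with diffReps in windows of 200 bp and annotated them with HOMER, and each library was called alone. The deposited values of 3 libraries are a signal, reads times 1 factor per column, and those of normal replicate 2 are read counts. After division by that factor, 100% of the values were whole reads (within 0.1 read). The authors' own columns of log2 fold change, p-value and adjusted p compare IP with input; their p-value was used only to keep peaks (IP/input of at least 2 and p under 0.0001), and the fold changes were not used.

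Kept peaks were merged across the 4 lists where they shared 1 bp or more. The fold of a region is its summed IP value over its summed input value, with the input taken as at least 3 reads. On the 6531 regions called in all 4 lists, edgeR 4.0.16 (R 4.3.3) quasi-likelihood tests were fitted to the recovered reads with TMM scaling and Benjamini-Hochberg adjustment over all regions: the IP/input ratio with 1 term per library pair, and IP and input reads with the covered length as an offset. Calls need an adjusted p under 0.05. Only reads inside called peaks are known, so the depth is that of the peaks, and intervals cover counting error only. DESeq2 1.42.0 and the other alternatives are in the closing section. The tests were checked on simulated data, with 200 of 6531 regions changed 2.5-fold. They recovered 81% of these in the ratio, 79% in IP and only 34% in input, with 5, 3 and 6 false calls. The changed regions were drawn only from those above a minimum mean read count, so recovery in regions with fewer reads was not measured. Deviations shared by same-numbered libraries were not simulated.

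Exons were taken from GENCODE vM21 and sequence from RefSeq GRCm38.p6. Described genes are those with a region in all 4 lists overlapping their own exon, by the region with the most IP reads, plus every region past a threshold. Tsc1, regions carrying a neighbour's name, regions found in starved lists alone, exon 2 of Mtor, exons 3 and 14 of Fnip2, exon 13 of Flcn and the pathway genes beyond Tbc1d7 were named after their values were seen. The genes, lists and tests were chosen with earlier results of these data known. No column of another sample was used.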

Additional observations from a re-analysis of the deposited data

How the results depend on the processing

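No region of the set was called for its IP/input ratio in any edgeR or DESeq2 fit that was run. At an IP/input of at least 4 the set had 0 regions in all 4 lists (334 in the whole series). No fit or fold rule could call a region of the set in that setting. For the 1.8-fold rule in both replicates, counts of higher regions were 0 under each alternative. Counts of lower regions were 0 without replicate 1 and 2 without replicate 2 (119 and 317 of all 6531). At a cutoff of 1.5 the count was 1 (77 of all 6531). The count of regions with more IP reads per base (2) became 14 with DESeq2, 17 with a replicate block, 0 without the length offset, 0 at an IP/input of at least 4 and 0 with reads summed per gene, and ran from 1 to 13 when 1 library was left out. The replicate block also gave 1 region with fewer IP reads, named for Tsc2 (274 of all 6531 were lower). For input (1) the counts were 5 with DESeq2, 3 at 10 reads or more in every library, 14 with a replicate block, 0 without the length offset, 0 at an IP/input of at least 4 and 0 summed per gene, and 2 to 6 when 1 library was left out. By the labels, same-numbered normal and starved libraries share only a number. Their deviations nevertheless correlated across regions, at r = 0.28 for the fold, 0.45 for IP and 0.31 for input. What they share was not tested. The sum per gene was chosen after seeing the data. The share of regions with GGAC was 40.0% in 100 bp and 74.3% in 300 bp, against 40.0% and 74.8% of all regions. Genes with a peak numbered 28 to 33 under the alternatives. The causes were not tested. Lone samples left after leaving out a library were assumed to vary like the other condition.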
